A study of Mus musculus with 16 samples.

Results

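IL-6 given alone was set against TGFb given alone in wild-type (WT) mouse CD4+ T cells. The 4 arrays, 2 with IL-6 and 2 with TGFb, were chosen by their sample titles from the 16 of the series, and every named gene was compared, on group means and within replicate number. Naive cells (CD4+, CD44-, CD62L+) had been sorted, then stimulated through CD3 and CD28 by antibodies over 3 days. The cultures compared held IL-6 at 10 ug/ml or TGFb at 2.5 ug/ml, units as labelled. The WT cells carried floxed Stat3 alleles without a Cre recombinase. The other 12 arrays held WT cells with both cytokines or in medium and STAT3-deficient cells in the same 4 conditions. The STAT3-deficient cells carried the floxed alleles with a CD4 Cre, which is active from thymic development on and also in cells that become CD8 T cells. Age, sex and number of the mice, and whether cells were pooled, are not stated. The labels do not say how the replicates were obtained, so each p-value reflects no more than the spread among these arrays.

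IL-6 binds a receptor that contains gp130, and the JAK kinases bound to it phosphorylate STAT3, which then enters the nucleus. TGFb binds a pair of receptor kinases that phosphorylate SMAD2 and SMAD3, and their targets include inhibitors of the same pathway, such as Smad7, Skil, Pmepa1 and Ldlrad4. In activated CD4+ T cells IL-6 is known for Il21 and other helper cell genes, TGFb for the regulatory T cell factor Foxp3 and the integrin chain Itgae, and both together for the Th17 cytokine Il17a.

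Levels are given as log2 of the deposited intensity, and changes as the IL-6 level minus the TGFb level on that scale. A level minimum of log2 6 stood in for detection. The 2 WT IL-6 arrays correlated at 0.939 and the 2 WT TGFb arrays at 0.97 over the genes tested. Replicate number went with sex-linked genes over the whole series, so that the 2 replicates of a group held RNA of different animals and number and sex cannot be told apart. Xist, the RNA of the inactive X chromosome, lay between 11.91 and 13.21 on the 8 arrays of replicate 1 and between 6.64 and 7.6 on the 8 of replicate 2. Eif2s3y, a gene of the Y chromosome, lay between 3.81 and 4.52 on the arrays of replicate 1 and between 9.84 and 10.98 on those of replicate 2. The Actb control probes at the 5' end less those at the 3' end, a sign of RNA quality, read -0.11 and -1 under IL-6, against -0.45 and -0.89 under TGFb. All 8 T cell markers measured lay over log2 8 on all 4 arrays, and the CD8, gamma delta, and mast cell and basophil markers lay under log2 8 on all of them. Markers of other cell types exceeded log2 8 on at least 1 array. They were the NK receptor chain Klrd1 (highest value 10.64), the NK marker Eomes (8.32) and the B cell marker Ighm (11.04). Of the dendritic cell markers H2-Ab1 (11.32), Cd74 (10.8) and H2-Aa (8.44) did, and of the stromal and epithelial ones Epcam (10.18) and Pecam1 (8.68). Epor (erythroid, 8.71), Itga2b (platelet, 8.03) and the myeloid marker Mpeg1 also did. Mpeg1 was at 5.25 and 4.81 under IL-6, against 8.15 and 6.66 under TGFb. Of the 41 markers tested, limma called 0 at an adjusted p under 0.05. At an unadjusted p under 0.05 there were 4, Cd28, Epcam, Klrd1 and Mpeg1. With the replicate number as a block limma called Klrd1 and Cd28. The mean of the 6 NK cell markers was 5.24 and 5.17 under IL-6, against 6.13 and 5.98 under TGFb, and without Klrd1 it was 5.19 and 4.9 under IL-6, against 5.62 and 5.05 under TGFb. The part of other cell types in the results was not tested. In such bulk samples fewer cells of a type and less RNA per cell cannot be told apart.

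Of 13007 genes tested, 112 (0.861%) differed between IL-6 and TGFb at a Benjamini-Hochberg adjusted p under 0.05 in limma, 67 of them (0.515%) higher and 45 (0.346%) lower under IL-6. The widest gaps among these genes were a cytokine, Il21, and a secreted serpin, Serpinf1, on the IL-6 side, and a TGFb pathway inhibitor, Ldlrad4, and the little described Kctd14 on the TGFb side. Of the 112 genes, 111 changed at least 2-fold, and 28 of the higher and 28 of the lower genes changed at least 4-fold. All 112 moved the same way within replicate 1 and within replicate 2, and in all 112 the arrays of one condition lay apart from those of the other. Over all genes tested 65.1% had the same sign in both replicate numbers and 39.6% had groups that did not overlap. Both traits were read on the 4 arrays that gave the calls, and groups that lie apart must share the sign. They are thus no separate support for the calls. The fit behind the 112 calls had no term for the replicate number. With the replicate number as a block 200 genes were called (1.54%), 125 higher (0.961%) and 75 lower (0.577%), and the 112 were all among them. In 31 of the 112 genes the lower group lay under log2 6, so that the size of their change depends on the background.

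**Figure D1:**
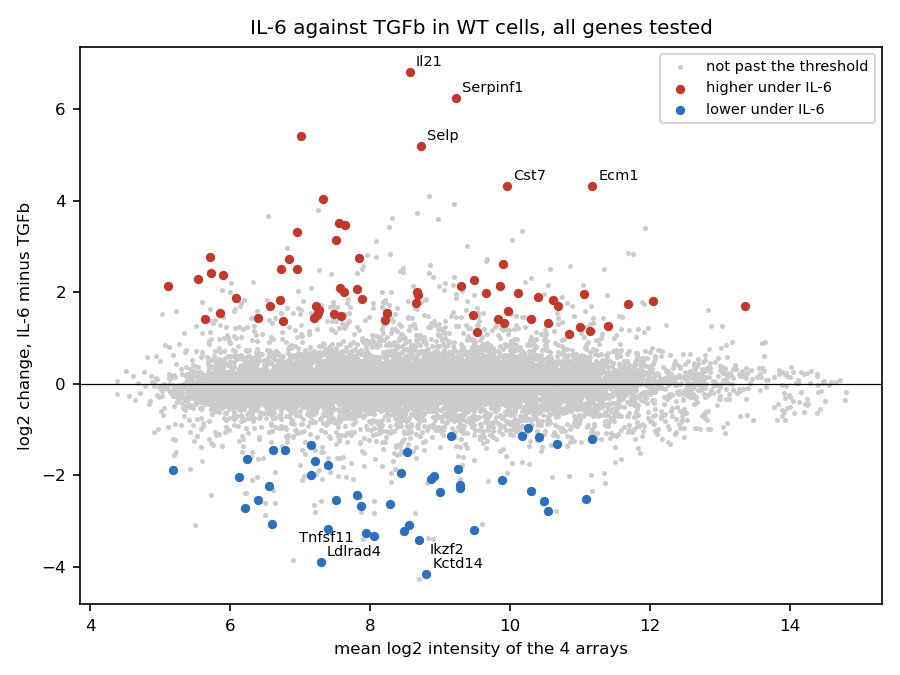
Log2 change between WT cells with IL-6 and with TGFb (y axis, IL-6 minus TGFb) against the mean log2 intensity of the 4 arrays (x axis), 1 point per gene tested. Red points are the 67 genes higher and blue points the 45 genes lower under IL-6 at an adjusted p under 0.05, and Il21 at 6.81 stands highest.

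Single arrays weighed on these counts. Each fit without an array leaves 1 array in a group, and a call can be lost there without a smaller change. Without IL-6 replicate 1 the fit called 68 genes and without IL-6 replicate 2 it called 404. Without TGFb replicate 1 it called 50 and without TGFb replicate 2 it called 13. In the same order, 51, 87, 44 and 12 of these genes were among the 112. Whichever of the 4 arrays was left out, 12 of the 112 genes remained called. The 6 higher ones were Il21, Serpinf1, Slc17a6, Ecm1, Gm17767 and Hhex, and the 6 lower ones Kctd14, Ldlrad4, Tnfsf11, Ffar4, Sestd1 and Adam19.

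The largest change was that of Il21, a cytokine of follicular helper and Th17 cells. Il21 was at 12.23 and 11.72 under IL-6 and at 5.86 and 4.46 under TGFb. Both IL-6 arrays lay far above the level minimum and both TGFb arrays below it. The change was 6.81 ± 0.53 (SE, n = 2 each, limma adjusted p = 0.000408). Medium held Il21 at 4.75 and 5.49, close to the TGFb level, and both cytokines together held it at 12.39 and 11.54, close to the IL-6 level.

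Secreted and matrix proteins made up several of the next largest increases. Serpinf1, a secreted serpin also called PEDF, was at 11.71 and 12.98 under IL-6, against 6.41 and 5.78 under TGFb (change 6.25 ± 0.67, adjusted p = 0.00171). Ecm1, an extracellular matrix protein known in T helper cells for its part in Th2 cell egress from lymph nodes, was at 13.83 and 12.85 under IL-6, against 9.02 and 8.99 under TGFb (4.33 ± 0.41, adjusted p = 0.000712). Adamtsl4, a secreted matrix protein, was at 9.52 and 9.1 under IL-6, against 5.83 and 5.75 under TGFb (3.51 ± 0.45, adjusted p = 0.00489). In none of these 3 genes did the groups overlap, as in all called genes. Ecm1 was well above the level minimum in both conditions, and the others were near or under it with TGFb. The call of Adamtsl4 was lost without TGFb replicate 2 (adjusted p = 0.0742).

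Slc17a6, a vesicular glutamate transporter, was at 9.14 and 10.29 under IL-6, against 4 and 4.58 under TGFb (5.42 ± 0.62, adjusted p = 0.00278). Selp, the adhesion molecule P-selectin, was at 11.1 and 11.56 under IL-6, against 6.27 and 6 under TGFb (5.2 ± 0.68, adjusted p = 0.00625). Both genes had levels of the 2 conditions far apart on every array. Cacna1c, the pore subunit of an L-type calcium channel, was at 7.85 and 6.36 under IL-6, against 4.32 and 4.32 under TGFb (2.78 ± 0.37, adjusted p = 0.00627). Its IL-6 arrays lay wide apart, and with values under log2 6 raised to 6 its adjusted p was 0.27. Without TGFb replicate 2 the adjusted p of both Selp and Cacna1c was 0.0764.

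Cst7, which encodes the cathepsin inhibitor cystatin F, was at 12.03 and 12.21 under IL-6, against 8.24 and 7.37 under TGFb (4.32 ± 0.61, adjusted p = 0.00786). Casp4, which encodes the inflammatory caspase-11 of mice, was at 9.39 and 9.03 under IL-6, against 6.29 and 6.64 under TGFb (2.75 ± 0.47, adjusted p = 0.0214). Unlike Il21, these genes were already high in medium, Cst7 at 11.77 and 11.51 and Casp4 at 9.36 and 9.24. Without TGFb replicate 2 neither was called, at changes of 3.88 for Cst7 and 2.93 for Casp4. Casp4 was also not called without the replicate 1 array of IL-6 or of TGFb (change 2.57 in each fit).

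Nuclear factors among the 15 largest increases were the homeobox factor Hhex and the chromatin remodeller Chd7. Hhex was at 9.36 and 8.83 under IL-6, against 5.95 and 5.93 under TGFb (3.15 ± 0.27, adjusted p = 0.000408). Its medium arrays (5.78 and 6.39) and its arrays with both cytokines (5.95 and 5.58) lay with those of TGFb, so that the 2 IL-6 arrays were the only WT arrays over 7. Chd7 was at 11.41 and 11 under IL-6, against 9.02 and 8.18 under TGFb (2.61 ± 0.37, adjusted p = 0.00786, or 0.116 without TGFb replicate 2 and 0.0643 without IL-6 replicate 1). The remaining genes of the 15 were Gm17767 (change 4.04), Filip1l (3.47), Moxd1 (3.32) and Dgkk (2.74). Moxd1, a copper-binding monooxygenase by its sequence class, had uneven IL-6 arrays, 9.51 and 7.73, and equal TGFb arrays, 5.29 and 5.32. The calls of Filip1l, Moxd1 and Dgkk were lost without TGFb replicate 1 or 2. The changes in these fits were 3.24 and 3.7 for Filip1l, 3.3 and 3.33 for Moxd1, and 2.89 and 2.59 for Dgkk. Dgkk was also not called without IL-6 replicate 1 (change 1.96).

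**Figure D2:**
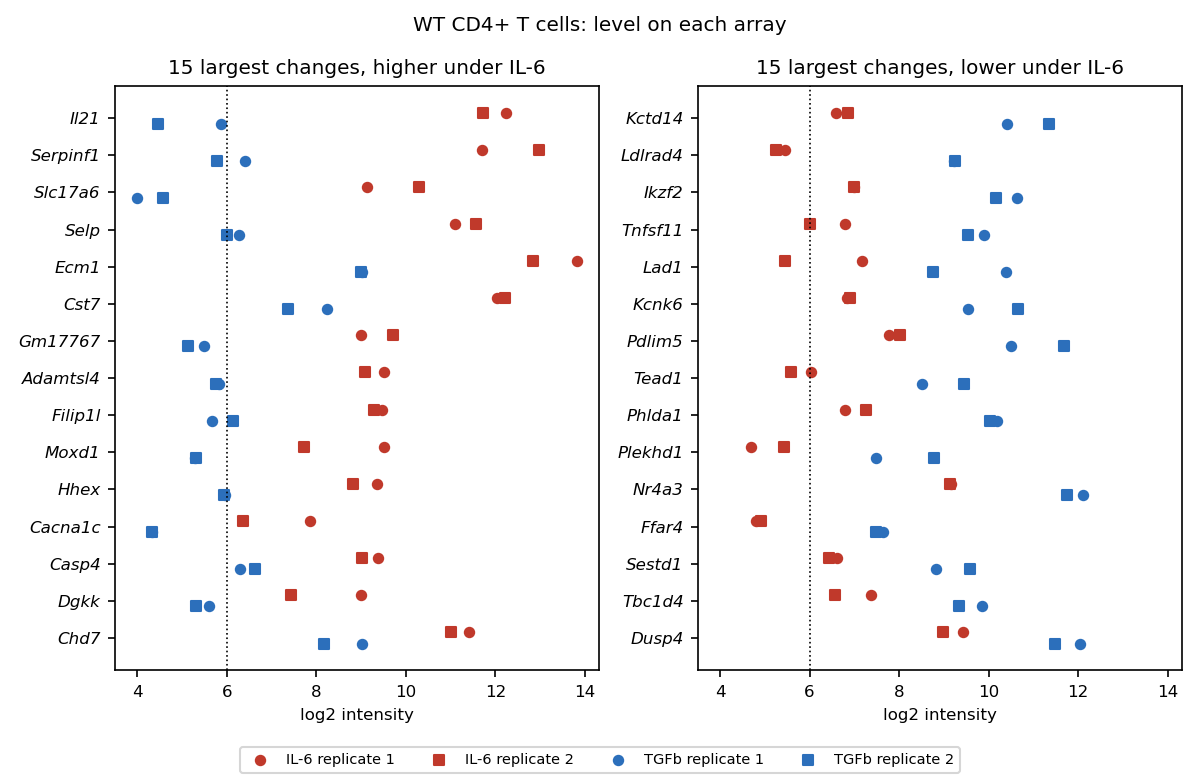
Log2 intensity on each of the 4 WT arrays (x axis) of the 15 genes with the largest increase (left) and the 15 with the largest decrease (right) under IL-6. Red marks are IL-6 and blue marks TGFb, circles replicate 1 and squares replicate 2, and the dotted line is the level minimum of log2 6. The red and blue marks do not overlap in any of the 30 genes, as the rule for naming them required.

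On the TGFb side, genes of the TGFb family pathways were called lower under IL-6. Ldlrad4, a membrane protein that keeps receptor SMADs from the TGFb receptor, was at 5.46 and 5.25 under IL-6, against 9.23 and 9.25 under TGFb (change -3.89 ± 0.34, adjusted p = 0.000408). Bmpr2, the type II receptor for bone morphogenetic proteins, was at 7.83 and 7.99 under IL-6, against 9.76 and 10.08 under TGFb (-2.01 ± 0.25, adjusted p = 0.00467, or 0.0757 without TGFb replicate 2). The TGFb arrays lay above the IL-6 arrays by nearly the same step in each replicate number. Pmepa1 (-2.13), which holds back SMAD signalling, and Skil (-1.99), a SMAD corepressor, missed the threshold without a block (adjusted p = 0.108 and 0.0527) and passed with it (0.0133 and 0.00485). Smad7 was at 8.21 and 8.68 under IL-6, against 9.26 and 9.64 under TGFb, a change of -1 ± 0.24 that was not called in either fit (adjusted p = 0.112, or 0.0769 with the block).

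The 15 largest decreases included the transcription factors Ikzf2, Tead1 and Nr4a3. Ikzf2, which encodes Helios, a factor found in many regulatory T cells, was at 6.99 and 6.99 under IL-6, against 10.63 and 10.17 under TGFb (-3.41 ± 0.62, adjusted p = 0.0272). Tead1, a DNA-binding partner of the Hippo pathway coactivators, was at 6.04 and 5.58 under IL-6, against 8.52 and 9.45 under TGFb (-3.17 ± 0.58, adjusted p = 0.0272). Nr4a3, an orphan nuclear receptor induced through the T cell receptor, was at 9.17 and 9.13 under IL-6, against 12.11 and 11.76 under TGFb (-2.78 ± 0.49, adjusted p = 0.0239). Nr4a3 was thus well above the level minimum in both conditions. A further Nr4a3 probe set hardly moved, at 7.21 and 7.04 under IL-6, against 7.22 and 7.17 under TGFb. Without TGFb replicate 2 none of the 3 was called, at changes of -3.65 for Ikzf2, -2.7 for Tead1 and -2.96 for Nr4a3. The change was thus larger for Ikzf2 and Nr4a3 and smaller for Tead1 than with all arrays. Ikzf2 and Nr4a3 kept their call in 1 of the 4 fits without an array, the fit without IL-6 replicate 2 (0.0493 and 0.0447), and Tead1 kept it in none of them.

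Tnfsf11, the TNF-type ligand RANKL, was at 6.79 and 6 under IL-6, against 9.89 and 9.54 under TGFb (-3.32 ± 0.38, adjusted p = 0.00282). Ffar4, a receptor for long-chain fatty acids, was at 4.81 and 4.91 under IL-6, against 7.65 and 7.49 under TGFb (-2.71 ± 0.23, adjusted p = 0.000408). The replicates of Ffar4 agreed more closely than those of Tnfsf11, and its IL-6 level lay below the level minimum. Kcnk6, a background potassium channel, was at 6.83 and 6.91 under IL-6, against 9.53 and 10.66 under TGFb (-3.22 ± 0.41, adjusted p = 0.005, or 0.0738 without TGFb replicate 2).

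Kctd14, a BTB domain protein of little known function, had the largest decrease among the called genes. It was at 6.58 and 6.86 under IL-6, against 10.42 and 11.34 under TGFb (-4.16 ± 0.36, adjusted p = 0.000408). The phosphatase Dusp4, which acts on MAP kinases, was at 9.43 and 8.97 under IL-6, against 12.04 and 11.48 under TGFb (-2.56 ± 0.41, adjusted p = 0.015). Neither gene had overlapping groups, as no called gene had. The remaining genes of the 15 were Lad1 (change -3.26), Pdlim5 (-3.19), Phlda1 (-3.09), Plekhd1 (-3.07), Sestd1 (-2.68) and Tbc1d4 (-2.62), a Rab GTPase-activating protein. Apart from Kctd14 and Sestd1, each lost its call without TGFb replicate 2. In that fit the changes of Dusp4 (-2.84), Lad1 (-4.08), Phlda1 (-3.18) and Tbc1d4 (-2.88) were larger than with all arrays. Those of Pdlim5 (-2.59) and Plekhd1 (-2.43) were smaller. Single other arrays also ended calls. Without TGFb replicate 1 the adjusted p was 0.116 for Dusp4, 0.246 for Lad1 and 0.179 for Phlda1, without IL-6 replicate 1 it was 0.139 for Pdlim5, 0.218 for Phlda1 and 0.169 for Plekhd1, and without IL-6 replicate 2 it was 0.101 for Lad1. Tbc1d4 was called in none of the 4 fits without an array (adjusted p between 0.0651 and 0.185).

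Promoters of the called genes were searched for letters that STAT, AP-1 and SMAD proteins are known to bind. RefSeq promoters (GRCm38.p6) were found for 91 of the 112 genes, 62 higher and 29 lower, and 250 bases before each start were read on both strands. The STAT letters TTCNNNGAA stood in 4 of 62 higher genes (6.45%), in 0 of 29 lower genes and in 7.12% of the 10505 tested genes with a promoter. The AP-1 letters TGANTCA stood in 11 of 62 higher genes (17.7%), in 2 of 29 lower genes (6.9%) and in 5.59% of tested genes. Over all 27025 genes with a promoter the shares were 8.13% for STAT and 7.82% for AP-1. The SMAD letters GTCTAGAC stood in no promoter of a called gene and in 0.276% of tested genes. No test was made, and a match is a description and not a site. Below, 100 bases are printed 5' to 3' along the gene's strand for 4 higher and 2 lower genes, with a match in capitals where these bases held a match. They are Il21 (chr3:37232637-37232736, minus strand), Ecm1 (chr3:95739580-95739679, minus strand), Selp (chr1:164115079-164115178, plus strand), Moxd1 (chr10:24223321-24223420, plus strand), Adam19 (chr11:46055807-46055906, plus strand) and Ffar4 (chr19:38096979-38097078, plus strand). Il21 and Ffar4 show called genes with none of the 3 motifs, Ecm1, Selp and Adam19 an AP-1 match, and Moxd1 a STAT match.
Il21: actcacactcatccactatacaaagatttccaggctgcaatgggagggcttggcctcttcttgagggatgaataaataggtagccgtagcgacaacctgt
Ecm1: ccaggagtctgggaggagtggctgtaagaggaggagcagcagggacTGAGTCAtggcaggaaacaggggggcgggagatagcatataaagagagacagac
Selp: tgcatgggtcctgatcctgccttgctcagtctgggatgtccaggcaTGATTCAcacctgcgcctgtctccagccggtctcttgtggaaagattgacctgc
Moxd1: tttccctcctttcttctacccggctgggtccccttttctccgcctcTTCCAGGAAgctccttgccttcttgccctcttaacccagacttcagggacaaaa
Adam19: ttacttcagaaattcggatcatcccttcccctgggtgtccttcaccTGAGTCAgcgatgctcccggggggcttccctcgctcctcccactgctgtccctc
Ffar4: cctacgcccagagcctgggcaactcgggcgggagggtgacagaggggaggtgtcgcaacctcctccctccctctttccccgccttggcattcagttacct

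In a panel of 31 genes that define helper and regulatory T cell subsets or the responses to both cytokines, 29 were tested, of which 1 (Il21) was higher and 1 (Ikzf2) lower. This is 6.9% of the panel, beside 0.861% of all genes tested, in a panel chosen with earlier results known. With the block Batf was also higher and Gpr15 and Skil lower. Batf, an AP-1 factor needed for Th17 and follicular helper cells, was at 11.81 and 11.1 under IL-6, against 9.85 and 8.43 under TGFb (2.31 ± 0.48, adjusted p = 0.0577, or 0.0472 with the block). Gpr15, a homing receptor of T cells in the large intestine, was at 5.09 and 4.7 under IL-6, against 6.69 and 5.86 under TGFb (-1.38 ± 0.29, adjusted p = 0.0628, or 0.0083 with the block). Both genes had groups that did not overlap, and Gpr15 was near or below the level minimum in both conditions. With both cytokines Gpr15 was at 9.84 and 9.8, above every array with 1 cytokine.

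Foxp3 was at 5.09 and 4.95 under IL-6 and at 4.81 and 9.99 under TGFb. A single array, TGFb replicate 2, was thus high, while TGFb replicate 1 lay with the IL-6 arrays. The change of -2.38 ± 1.4 was not called (adjusted p = 0.735), and without TGFb replicate 2 it was 0.21. Itgae was at 6.66 and 6.3 under IL-6, against 8.89 and 6.98 under TGFb (-1.45 ± 0.84, adjusted p = 0.717), and here replicate 1 was the higher of the TGFb arrays. The regulatory T cell list held 24 tested genes, of which 0 rose and 1 (Ikzf2) fell, with a median change of -0.88 and 8 of 24 genes above 0. The called share of the list was 4.17%, beside 0.861% of all genes tested. Over all genes tested the median change was -0.02. The list's lowest change, -4.26, was that of Nt5e, which encodes the ectoenzyme CD73, and it missed the threshold (adjusted p = 0.0671, or 0.0555 with the block).

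In the list of the IL-6 and STAT3 response, 2 of 36 tested genes rose (Il21 and Jak2) and 0 fell. This is 5.56% of the list, beside 0.861% of all genes tested. The median change was 0.59, and 30 of 36 genes lay above 0. Jak2, a kinase of cytokine receptors, was at 12.96 and 12.13 under IL-6, against 11.1 and 10.52 under TGFb (1.74 ± 0.29, adjusted p = 0.0169, or 0.23 without TGFb replicate 2 and 0.102 without IL-6 replicate 1). With the block Batf and the kinase gene Pim2 (1.15) were added. Socs3, the feedback inhibitor of IL-6 signalling, was at 12.17 and 12.54 under IL-6, against 10.11 and 10.72 under TGFb. All 4 Socs3 values were high and the groups did not overlap, but the change of 1.94 ± 1.05 was not called (adjusted p = 0.674, or 0.277 with the block). Within replicates 1 and 2 the change was 2.06 and 1.82. The error draws on the spread within all groups. The Socs3 standard deviation was 0.26 with IL-6 and 0.43 with TGFb in WT cells, but 2.17 in WT medium and 2.15 in the STAT3-deficient TGFb arrays. Stat3 was at 11.42 and 12.09 under IL-6 and at 11.79 and 12.18 under TGFb, with overlapping groups (-0.23 ± 0.58, adjusted p = 0.976). Prdm1, which encodes Blimp-1, was at 9.53 and 7.48 under IL-6, against 6.19 and 5.86 under TGFb (2.48 ± 0.55, adjusted p = 0.0724).

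In the list of the TGFb and SMAD response, 0 of 36 tested genes rose and 2 (Ldlrad4 and Bmpr2) fell. This is 5.56% of the list, beside 0.861% of all genes tested. The median change was -0.42, and 9 of 36 genes lay above 0. With the block Pmepa1, Skil and the protease gene Furin (-1.12) fell as well, and Smad3 (1.54), which encodes a SMAD that the receptor phosphorylates, rose. Tgfbr1, the type I receptor, was at 9.75 and 9.06 under IL-6, against 11.05 and 11.25 under TGFb (-1.75 ± 0.47, adjusted p = 0.164). Its groups lay apart, but the difference did not pass in either fit.

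The helper cell lists each held 1 called gene, between 4.35% and 5.26% of their members, beside 0.861% of all genes tested. Il21 was the gene called of 23 Th17 genes (median change 0.19) and of 19 follicular helper genes (median 0.95). Both calls thus rest on the same gene, which is also in the IL-6 and STAT3 list. Among Th17 genes Il17a was near the level minimum in both conditions, at 5.95 and 6.25 under IL-6 and at 6.39 and 6.09 under TGFb, and was at 10.16 and 11.58 with both cytokines. Of 22 Th1 genes (median 0.21), Hlx, a homeobox factor, rose by 1.71 ± 0.3 (adjusted p = 0.0226). Without an array its adjusted p was 0.0978 (IL-6 replicate 1), 0.0941 (TGFb replicate 1) and 0.243 (TGFb replicate 2). Of 20 Th2 and Th9 genes (median 1.41), Ecm1 rose. The cytokine genes Il4 and Il9 of the list were not called. Il4 was at 9.56 and 9.74 under IL-6, against 7.92 and 5.13 under TGFb (3.13 ± 2.29, adjusted p = 0.829), and Il9 was at 7.55 and 6.88 under IL-6, against 10.68 and 9.43 under TGFb (-2.83 ± 1.05, adjusted p = 0.391). For both the groups were apart in these 4 arrays, and the errors draw on the spread within all groups. The Il4 standard deviation was 1.98 in the WT TGFb arrays themselves and 4.59 in the STAT3-deficient IL-6 arrays. For Il9 it was 0.48 and 0.88 in the 2 WT groups compared, and 2.7 in the STAT3-deficient TGFb arrays.

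Among 17 genes of cytotoxic and NK-type cells (median -0.25), Cst7 rose and Ctsw, which encodes the lysosomal protease cathepsin W, fell. This is 11.8% of the list, beside 0.861% of all genes tested. Ctsw was at 9.35 and 10.32 under IL-6, against 12.38 and 12.32 under TGFb (-2.51 ± 0.48, adjusted p = 0.0342). Without an array its adjusted p was 0.241 (IL-6 replicate 1), 0.163 (TGFb replicate 1) and 0.259 (TGFb replicate 2). Klrd1, which encodes the NK receptor chain CD94, was at 5.46 and 6.54 under IL-6, against 8.71 and 10.64 under TGFb, a change of -3.68 ± 0.92 that passed with the block alone (adjusted p = 0.126, or 0.00689 with it). The granzyme genes Gzma (4.1) and Gzmb (3.41) missed the threshold (adjusted p = 0.174 and 0.671).

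The lists of surface, signalling and survival genes had between 2.86% and 5.26% of their members called, beside 0.861% of all genes tested. Selp was the gene called of 35 for chemokine receptors and adhesion (median 0.08), and with the block Gpr183 (1.73) rose and Gpr15 fell. Il21 rose and Tnfsf11 fell among 38 cytokines and TNF-type ligands (median 0.08), and with the block Tnfsf8 (2.83) rose. Nr4a3 and Dusp4 fell among 38 activation and AP-1 genes, although the list's median was 0.37. Casp4 was the gene called of 25 for survival and death (median 0.13).

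In 8 lists limma called 0 genes. Over all genes tested 1189 of 13007 (9.14%) had an unadjusted p under 0.05, and the counts of the 8 lists are given beside that share. These were cytokine receptors (9 of 28 genes at an unadjusted p under 0.05), inhibitory and costimulatory receptors (3 of 23), naive and memory genes (3 of 19), interferon response (6 of 40), cell cycle (2 of 48), glycolysis and hypoxia (1 of 31), sterol and fatty acid synthesis (1 of 27) and amino acid stress and serine (1 of 32). With the block Cd28 (1.47) and the RNA sensor gene Ifih1 (1.84) rose among them. The changes of the 48 cell cycle genes lay between -0.65 and 0.67, around a median of -0.04.

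**Figure D3:**
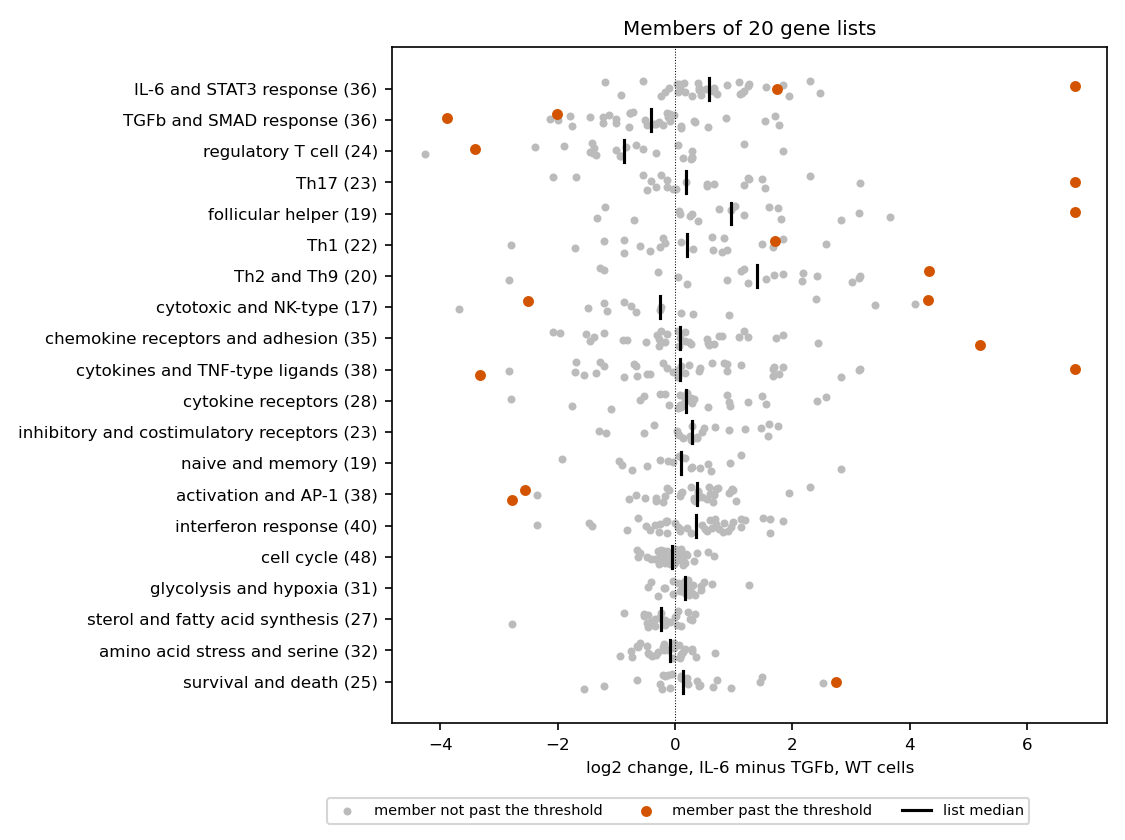
Log2 change, IL-6 minus TGFb, of each tested member (points) of 20 gene lists in WT cells, with the number of tested members in brackets. Orange points passed the threshold and black bars are list medians, from -0.88 for regulatory T cell genes to 1.41 for Th2 and Th9 genes.

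The levels of activated WT cells in medium, with neither cytokine added, show which of the 2 conditions lay away from it. For each called gene the medium level was placed between the TGFb level (0) and the IL-6 level (1), and was said to lie at the TGFb level up to 0.25 and at the IL-6 level from 0.75. The classes have no outer limit, so that levels beyond either condition, with places under 0 or over 1, are counted too. These places are descriptions, with no test. Of the 67 higher genes, 31 had medium at the TGFb level, 30 between and 6 at the IL-6 level. Of the 45 lower genes, 26 had medium at the IL-6 level, 14 between and 5 at the TGFb level. Il21 and Hhex were thus high with IL-6 and near medium with TGFb, and Kctd14 and Ldlrad4 high with TGFb and near medium with IL-6.

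Some genes held the opposite place. Medium was at the IL-6 level in the higher genes Cst7, Casp4, Slc17a6, Slamf1, Tiam1 and Tmem229b, of which Slamf1, Tiam1 and Tmem229b were named after their values were seen. Slc17a6 was at 7.5 and 9.46 in medium, below the IL-6 array of the same number in both replicates and above both TGFb arrays, with a place of 0.77 that is near the limit of 0.75. Medium was at the TGFb level in the lower genes Tnfsf11, Lad1, Nr4a3, Qser1 and Mrpl13, the last pair also named after their values were seen. Tnfsf11 was at 10.42 and 9.55 in medium, with the TGFb arrays, and Lad1 at 10.05 and 9.81. In Tnfsf11, Lad1 and Nr4a3 the arrays with both cytokines lay at the IL-6 level as well, Tnfsf11 at 6.41 and 6.54, Lad1 at 5.36 and 5.64 and Nr4a3 at 9.75 and 9.73.

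The cultures with both cytokines were placed on the same scale. Of the 67 higher genes, 14 stood at the IL-6 level, 32 between and 21 at the TGFb level, and of the 45 lower genes, 24 stood at the TGFb level, 15 between and 6 at the IL-6 level. The median place was 0.41 in the higher and 0.21 in the lower genes. Medium at the TGFb level together with both cytokines at the IL-6 level was seen in 9 higher genes, among them Il21 and Gm17767. Medium and both cytokines were at the TGFb level in 7 higher genes, among them Hhex, Moxd1 and Cacna1c. Of the lower genes, 16 had medium at or beyond the IL-6 level and both cytokines at or beyond the TGFb level, among them Kctd14, Ldlrad4, Bmpr2 and Ctsw. The medium level of Ctsw lay well below its IL-6 level, with a place of 1.84. Ikzf2 was the only lower gene with medium and both cytokines at the IL-6 level. It was at 7.4 and 7.23 with both cytokines and at 7.34 and 6.99 in medium, so that the TGFb arrays alone were high. Without medium replicate 1 the count of 31 was 24, and without medium replicate 2 it was 38.

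**Figure D4:**
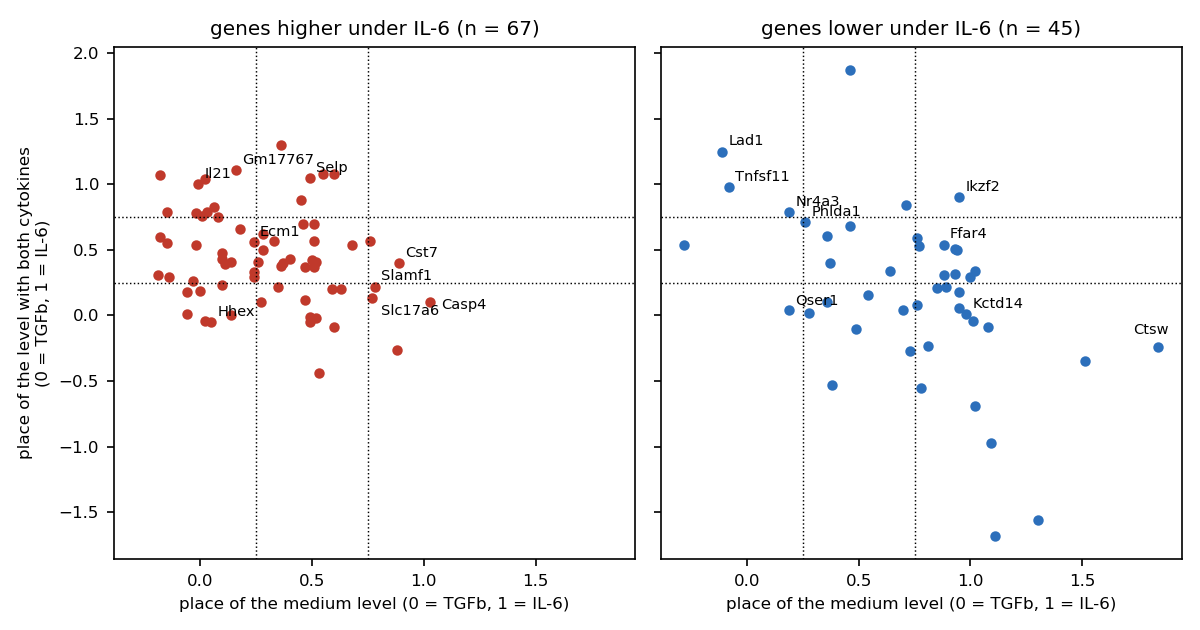
Place of the WT medium level (x axis) and of the WT level with both cytokines (y axis) between the TGFb level (0) and the IL-6 level (1), 1 point per called gene, with the 67 higher genes on the left and the 45 lower genes on the right. Dotted lines mark 0.25 and 0.75. Higher genes gather left of 0.75 and most lower genes lie at the right, with medians of 0.28 and 0.78 on the x axis.

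The same contrast was read on the 4 arrays of STAT3-deficient cells. They had no part in the WT changes, but entered the level filter and the spread behind the 112 calls, and with only WT arrays fitted 73 genes were called, 56 of them among the 112. Stat3 itself was at 11.42 and 12.09 in WT cells and at 8.73 and 8.57 in STAT3-deficient cells with IL-6, and at 11.79 and 12.18 in WT cells and at 8.46 and 10.46 in STAT3-deficient cells with TGFb. Each STAT3-deficient array was lower than the WT arrays of its condition, least so TGFb replicate 2, and where the probes lie relative to the deleted stretch was not checked. The STAT3-deficient TGFb arrays had the lowest replicate correlation of the 8 groups (0.906). In this contrast 238 genes were called (1.83%), 23 higher (0.177%) and 215 lower (1.65%) under IL-6. With the block 800 were called (6.15%), 117 higher (0.9%) and 683 lower (5.25%). The median level of the genes tested was lower with IL-6 than with TGFb in both replicates (7.85 against 8.06, and 8.09 against 8.26). After further quantile normalization 38 genes were called higher and 144 lower. The part of this shift in the calls was not tested. Without STAT3-deficient IL-6 replicate 1 the fit called 29 genes and without IL-6 replicate 2 it called 20. Without TGFb replicate 1 it called 100, and without TGFb replicate 2, the array with the highest Stat3 of the 4, it called 435.

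The higher and the lower genes of WT cells were counted separately. Of the 67 genes higher in WT cells, 49 had the same sign in STAT3-deficient cells and 7 were called higher there (9 with the block), set beside 0.177% of all genes tested. These 7 were Slc17a6 and Casp4 and, named after their values were seen, Cd53, Etv6, Map3k8, Tmem229b and Tspan4. The median change of the 67 genes was 1.87 in WT and 0.28 in STAT3-deficient cells. Of the 45 genes lower in WT cells, 41 had the same sign and 25 were called lower in STAT3-deficient cells (31 with the block), set beside 1.65% of all genes tested. Their median was -2.24 in WT and -1.78 in STAT3-deficient cells. The shares of 0.177% and 1.65% are for the calls. The share of same signs over all genes tested is not given here. Choosing genes by their WT change enlarges the WT values, in both directions. The 7 genes became 0 without STAT3-deficient IL-6 replicate 1 or 2, 2 without TGFb replicate 1 and 3 without TGFb replicate 2. The 25 became 12 without IL-6 replicate 1 and 10 without IL-6 replicate 2.

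In STAT3-deficient cells Il21 was at 4.75 and 5.09 with IL-6 and at 5.32 and 4.32 with TGFb, all below the level minimum, and its change was 6.81 in WT and 0.1 in STAT3-deficient cells. Hhex was at 5.55 and 6.02 with IL-6 and at 5.81 and 5.75 with TGFb in STAT3-deficient cells, and its change was 3.15 in WT and 0.01 in STAT3-deficient cells. The change of Serpinf1 was 6.25 in WT and 0.46 in STAT3-deficient cells, and that of Ecm1 4.33 in WT and 0.19 in STAT3-deficient cells. By contrast Slc17a6 changed by 5.42 in WT and by 3.93 in STAT3-deficient cells (adjusted p = 0.0154 there), and Casp4 by 2.75 in WT and by 2.5 in STAT3-deficient cells (0.0275).

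On the TGFb side Ldlrad4 was at 5.46 and 5.09 with IL-6 and at 9.8 and 9.43 with TGFb in STAT3-deficient cells, nearly the WT levels, and its change was -3.89 in WT and -4.34 in STAT3-deficient cells. The change of Kctd14 was -4.16 in WT and -4.27 in STAT3-deficient cells, and that of Bmpr2 -2.01 in WT and -2.51 in STAT3-deficient cells. Tnfsf11 was different, at 10.03 and 9.62 with IL-6 and at 9.25 and 9.68 with TGFb in STAT3-deficient cells, all 4 high, with a change of -3.32 in WT and 0.36 in STAT3-deficient cells. Lad1 (-3.26 in WT, 1.04 in STAT3-deficient cells) and Nr4a3 (-2.78 in WT, 0.62 in STAT3-deficient cells) also had the opposite sign without STAT3, though neither STAT3-deficient change was called.

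The difference between the genotypes was tested itself, as the WT change minus the STAT3-deficient change. It was called for 3 of 13007 genes (0.0231%), Il21 (6.71 ± 0.74, adjusted p = 0.0112), Maf (6.51 ± 0.67, adjusted p = 0.0106) and Hhex (3.14 ± 0.38, adjusted p = 0.0156). All 3 calls were lost without STAT3-deficient IL-6 replicate 1 or 2, and with the block and the Actb covariate. The difference was called for 1 gene without STAT3-deficient TGFb replicate 1 and for 113 without its replicate 2, and for 24 without WT IL-6 replicate 1 and 165 without its replicate 2. With the block 61 genes were called (0.469%), among them 19 of the 67 higher genes, Serpinf1, Ecm1, Gm17767 and Adamtsl4 included, and 2 of the 45 lower genes, Tnfsf11 and Adam19 (named after its values were seen). The difference of Tnfsf11 was -3.67 ± 0.54 (adjusted p = 0.0705, or 0.0304 with the block), and that of Adam19 was positive, since it fell by 2.37 in WT and by 4.16 in STAT3-deficient cells. For Slc17a6 (difference 1.49 ± 0.88), Casp4 (0.25 ± 0.67), Kctd14 (0.11 ± 0.52) and Ldlrad4 (0.45 ± 0.48) the difference was not called in either fit.

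Maf, a transcription factor of Th17 and follicular helper cells, was high with either cytokine in WT cells. It was at 10.34 and 11.82 with IL-6 and at 9.92 and 9.9 with TGFb, against 5.32 and 5.29 in medium, so that its WT change of 1.17 ± 0.47 was not called (adjusted p = 0.463). In STAT3-deficient cells it was at 5.13 and 5.73 with IL-6 and at 11.37 and 10.17 with TGFb, a change of -5.34 ± 0.47 (adjusted p = 0.000458). Rora, which encodes an orphan receptor used by Th17 cells, and the ligand-activated factor Ahr were also not called in WT cells (-0.33 and -0.54). Unlike in Maf, their WT groups overlapped and the replicates went opposite ways. Within replicates 1 and 2 the WT change was -0.89 and 0.24 for Rora and -2.27 and 1.19 for Ahr. In STAT3-deficient cells Rora changed by -2.72 and Ahr by -3.6 (limma adjusted p = 0.00819 and 0.021). Their differences between the genotypes were not called (adjusted p = 0.159 for Rora and 0.238 for Ahr, or 0.0766 and 0.124 with the block).

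**Figure D5:**
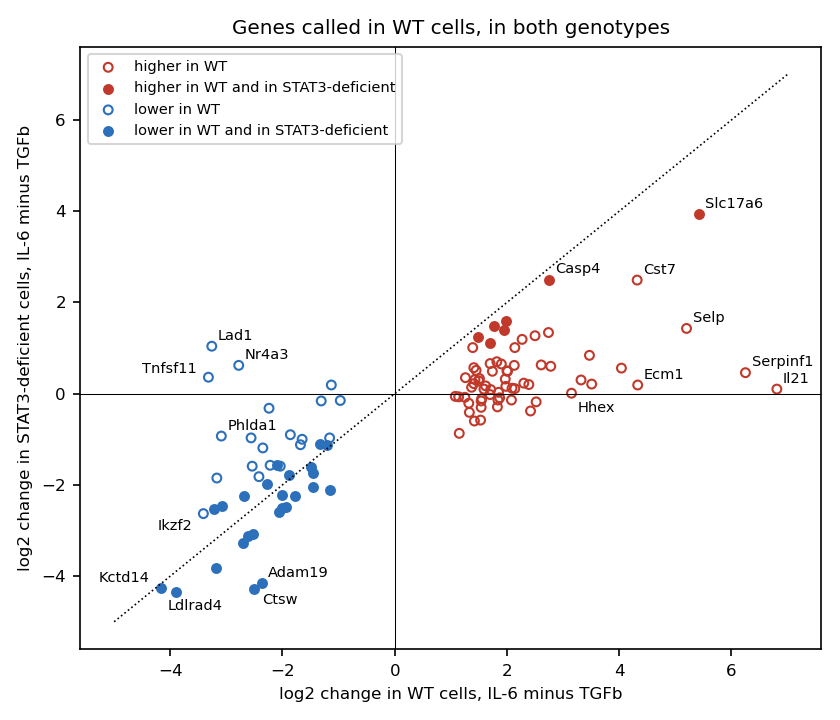
Log2 change, IL-6 minus TGFb, of the 112 genes called in WT cells, in WT cells (x axis) and in STAT3-deficient cells (y axis). Red marks are higher and blue marks lower under IL-6 in WT cells, filled where called the same way in STAT3-deficient cells, and the dotted line marks equal changes. Most of the 67 higher genes lie near 0 on the y axis (median 0.28), and most of the 45 lower genes lie closer to the line (median -1.78).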

How the data were processed

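Per the labels' protocols, MirVana was used for the RNA and MessageAmpII-Biotin for the labelled target of the Affymetrix arrays. The authors deposited linear intensity per probe set (6 to 37243, 100% whole), processed with RMA per the submitters' processing notes. The version of RMA and its settings were not found in the labels. No further scaling was applied, as array medians over the probe sets ranged from 66 to 73. Over the genes tested the median log2 level in WT cells was 8.23 and 8.26 with IL-6, against 8.21 and 8.2 with TGFb. In STAT3-deficient cells it was lower with IL-6 in both replicates, at 7.85 and 8.09, against 8.06 and 8.26 with TGFb.

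The platform annotation gave 1 symbol to 34945 of 45101 probe sets, several to 932 and none to 9160 (64 controls were left out). By Entrez number, 34741 of these had an entry in RefSeq's GRCm38.p6 table. A gene was read by its brightest probe set. Of the 34 called genes named, 17 had further probe sets, none of opposite sign. Some of these hardly moved, such as those of Nr4a3 (-0.07 and -0.18, beside -2.78) and Bmpr2 (-0.4 and -0.31, beside -2.01). With the mean of probe sets the calls of Nr4a3, Ikzf2, Chd7 and Tbc1d4 were lost (limma adjusted p = 0.077, 0.0695, 0.0944 and 0.0509). Log2 was taken with no pseudocount, and the 13007 of 18193 genes at log2 6 or more on at least 2 arrays were tested. All 16 arrays were fitted in limma 3.58.1 (R 4.3.3) with 8 group means (8 residual and 3.27 prior degrees of freedom), two-sided, with Benjamini-Hochberg adjustment over 13007 genes. The script was tested on simulated data. Figures used matplotlib 3.10.9 under Python 3.11.15.

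Replicate numbers come from the titles. Deviations of same-numbered arrays correlated at 0.107 to 0.863 over 28 pairs of groups (0.61 for WT IL-6 with WT TGFb), so same-numbered arrays shared deviations to an uneven degree. The main fit left this pairing out, for the 112 WT calls, the standard errors and the 3 genotype differences. The fit with the replicate block kept it (200 and 61 calls). Alternatives changed the block, the arrays fitted, array weights, the level minimum, a floor, quantile normalization, the mean of probe sets, the eBayes settings, the Actb covariate and single arrays. The array weights were the same for both arrays of a group, so this setting weighed groups and could not weigh down a single array. They ranged from 0.494 for STAT3-deficient TGFb to 1.94 for WT IL-6 with TGFb. Named were a panel of 31 genes, the 15 genes each way with the largest changes among called genes whose groups did not overlap, up to 4 called members of each of 20 lists, and up to 5 genes each way in the genotype difference. Further genes were named after their values were seen, among them Nt5e, Gzma and Gzmb. The comparison, lists and panel were chosen with earlier results of these data known. The number of arrays limits the precision.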

Additional observations from a re-analysis of the deposited data

Results flagged for a closer look

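The change between IL-6 and TGFb differed between WT and STAT3-deficient cells in 3 genes, by the test of the difference itself in limma with Benjamini-Hochberg adjustment. For Il21 the difference was 6.71 on the log2 scale (WT change 6.81, STAT3-deficient change 0.1, adjusted p = 0.0112). For Maf it was 6.51 (WT change 1.17, STAT3-deficient change -5.34, adjusted p = 0.0106), and for Hhex it was 3.14 (WT change 3.15, STAT3-deficient change 0.01, adjusted p = 0.0156). With the replicate block all 3 were called, with adjusted p of 0.0139, 0.0128 and 0.0196. With the block and the Actb covariate none was (0.0979, 0.0979 and 0.104), and with array weights Il21 and Hhex were not (0.1 each). The differences of Il21, Maf and Hhex kept their sign whichever of the 8 arrays was left out. Their lowest and highest values were 6.01 and 7.41 for Il21, 5.77 and 7.25 for Maf, and 2.88 and 3.41 for Hhex. The adjusted p passed the threshold in 5 of 8 such fits for Il21, 6 of 8 for Maf and 3 of 8 for Hhex. Without STAT3-deficient IL-6 replicate 1 it was 0.09, 0.0662 and 0.0938, and without STAT3-deficient IL-6 replicate 2 it was 0.0538, 0.0515 and 0.0515, each in the order Il21, Maf, Hhex. Without STAT3-deficient TGFb replicate 1 it was 0.0698 for Il21 and 0.1 for Hhex, and Hhex was also at 0.121 without WT TGFb replicate 1 and at 0.104 without WT TGFb replicate 2.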

How the results depend on the processing

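The 112 genes called in WT cells (67 higher, 45 lower) became 200 (125, 75) with the replicate block, 160 with the block and the Actb covariate (104 higher), 73 with only WT arrays fitted (42 higher) and 0 with only the 4 arrays compared (0 and 0, with 1064 genes at an unadjusted p under 0.05), where 2 residual degrees of freedom remain. Without single arrays they ranged from 13 to 404 (7 to 94 higher, 6 to 310 lower). The 7 other settings gave 101 to 117 genes, but not always the same ones. Among the 112 were 80 of those called with the mean of probe sets, 90 with the floor, 95 with array weights and 101 with quantile normalization. With the floor Cacna1c, Lad1, Phlda1, Plekhd1 and Tead1 lost their calls (limma adjusted p = 0.27, 0.056, 0.056, 0.113 and 0.0518). The 238 genes of STAT3-deficient cells (23 higher, 215 lower) became 800 (117, 683) with the replicate block, 14 (0, 14) with array weights, 152 (135 lower) with the mean of probe sets, 38 higher with quantile normalization, and 20 to 435 (0 to 105, 20 to 330) without single arrays. The 3 genotype differences (3 higher, 0 lower) became 61 (58, 3) with the replicate block, 0 (0 higher) with the block and the Actb covariate, 1 (1 higher) with array weights, 6 (6 higher) with the floor, 7 (7 higher) with the mean of probe sets, and 0 to 165 (0 to 85, 0 to 130) without single arrays. Of the WT genes also called in STAT3-deficient cells, the 7 higher became 0 with array weights and 0 to 3 without single arrays, and the 25 lower became 9 and 10 to 23. The cause of these shifts was not tested. Of the counts by place, 31, 14, 26 and 24 were recomputed, and they moved by less than 1.5 times in the settings run, of which leaving out arrays with medium or both cytokines was chosen after seeing the data.

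None of the 34 called genes named turned its sign, which leaving out an array could not do since their groups lay apart. Changes that were not called did turn. Without single arrays they ranged from -1.7 to 0.61 for Ahr (also 0.03), from -0.25 to 0.36 for Ctla4 (also -0.01), from -4.97 to 0.21 for Foxp3, from -1.94 to 2.17 for Ifng (also -1.16), from -0.29 to 0.01 for Il17a, from -0.74 to 1.35 for Il2ra (also -0.07), from -0.83 to 0.18 for Rora, from -0.57 to 0.11 for Stat3 and from -0.12 to 1.41 for Tbx21. Ctla4 was at -0.07 with the block and the Actb covariate, and Ifng at -0.34 with the floor. The cause was not tested. With 2 arrays a group and no detection calls used here, changes of dim genes are limited by the background.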
